A study of Rattus norvegicus with 10 samples.

Results

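The 10 endothelial marker genes Vwf, Eng, Flt1, Tek, Tie1, Cdh5, Kdr, Esam, Egfl7 and Sox18 were followed through RNA-seq of round spermatids from young and aged rats. They were chosen by name: every row of the gene tables carrying one of these symbols was taken, which gave 10 of 32545 genes, each listed once and each detected in all 10 libraries. Round spermatids are haploid male germ cells, formed by the second meiotic division and not yet elongated. The animals were Brown Norway rats with wild-type genotype (WT in the labels), 4 to 6 months old in the young group (5 samples) and 18 to 20 months old in the aged group (5 samples), with no treatment other than age. Cells were separated by STA-PUT, in which a testis suspension settles through a gradient and is collected by sedimentation speed, so cells of other types can stay in a fraction. The labels do not state whether each sample is 1 animal, and the p-values therefore measure the spread between these samples.

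Endothelial cells line blood vessels. They sense vascular endothelial growth factor (VEGF) through the receptor tyrosine kinases encoded by Kdr (VEGFR2), the main signalling receptor, and Flt1 (VEGFR1), which binds the ligand tightly, signals weakly and also yields a secreted decoy. Angiopoietins act through Tek (the TIE2 receptor), with Tie1 as its orphan partner, and endoglin, from Eng, is a co-receptor for BMP9, BMP10 and TGF-beta. Cdh5 (VE-cadherin) and Esam sit at the junctions between the cells, Vwf is the clotting protein that they store and secrete, Egfl7 is a secreted matrix-associated protein and Sox18 is a transcription factor of vessel and lymphatic development. In the testis, vessels run in the interstitium, outside the seminiferous tubules that hold the germ cells.

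Promoter sequence of 5 of the 10 genes was matched by symbol in the RefSeq table for rat build GRCr8, and those of the 4 receptors among them are shown because they hold the most abundant of the 10 genes (Eng), the least abundant (Kdr), the most even across libraries (Flt1) and the one with the highest fitted difference between the ages (Tie1). Each run is the 250 bases before the annotated start, read 5′ to 3′ in the direction of the gene. Capitals mark AGGAAG, the core bound by ETS factors, on either strand (CTTCCT on the other), and TGACGTCA, the cAMP response element, which reads the same on both strands. Flt1 lies at chr12:12333180-12333429 on the plus strand, Eng at chr3:36332029-36332278 on the plus strand, Tie1 at chr5:137304982-137305231 on the minus strand and Kdr at chr14:32571813-32572062 on the plus strand.
Flt1: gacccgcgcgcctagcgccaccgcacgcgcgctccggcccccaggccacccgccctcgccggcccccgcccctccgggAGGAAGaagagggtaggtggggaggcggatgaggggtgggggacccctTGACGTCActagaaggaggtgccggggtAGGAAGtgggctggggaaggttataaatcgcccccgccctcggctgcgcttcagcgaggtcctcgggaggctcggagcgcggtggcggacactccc
Eng: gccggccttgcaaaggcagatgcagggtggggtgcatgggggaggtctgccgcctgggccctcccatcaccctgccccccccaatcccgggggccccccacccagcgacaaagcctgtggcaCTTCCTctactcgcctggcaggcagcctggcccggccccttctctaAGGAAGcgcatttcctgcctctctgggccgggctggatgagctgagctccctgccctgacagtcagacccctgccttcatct
Tie1: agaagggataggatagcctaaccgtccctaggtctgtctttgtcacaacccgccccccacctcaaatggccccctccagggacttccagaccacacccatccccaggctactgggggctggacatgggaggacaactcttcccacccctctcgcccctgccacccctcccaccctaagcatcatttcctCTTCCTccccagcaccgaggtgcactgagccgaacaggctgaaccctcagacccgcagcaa
Kdr: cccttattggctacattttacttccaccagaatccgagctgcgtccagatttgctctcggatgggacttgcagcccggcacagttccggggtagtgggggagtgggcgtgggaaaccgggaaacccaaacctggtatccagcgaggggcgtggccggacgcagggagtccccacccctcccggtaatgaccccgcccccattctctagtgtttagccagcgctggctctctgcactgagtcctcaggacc
Flt1 carries 2 AGGAAG matches, with their first bases 172 and 96 bases before the start, and the TGACGTCA match 124 bases before it. Eng carries 2 AGGAAG matches, 82 bases before the start as read and 128 bases before it on the other strand, and Tie1 carries 1, on the other strand at 61 bases. In the Kdr window neither motif was matched. AGGAAG was found on either strand in 29.5% of the 33469 windows of the same length in the table and TGACGTCA in 1.59%, and among the matched genes TGACGTCA was in the Flt1 window only. CGGAAG, the other common ETS core, was in none of the matched windows and in 13.9% of all windows. The GC box GGGCGG, in 30.5% of all windows, was matched 3 times in Flt1, once each in Tie1 and Kdr, and not in Eng. The GC content was 73.2% in Flt1, 68.0% in Eng and 61.6% in both Tie1 and Kdr, against a median of 51.2% over all windows. Such matches describe the letters of a window and are not binding sites.

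Recovered depth was 14488222 to 17401744 fragments per young library and 15992576 to 18203223 per aged library, so that 1 FPKM (fragments scaled to gene length in kilobases and to the library total) over 1 kilobase stood for 14.6 to 18.6 fragments. Genes of the labelled cell type were abundant: the summed level of 10 spermatid markers was 23452 to 37821 FPKM in young and 23284 to 30394 FPKM in aged libraries, led by Prm1 and Tnp2. Of the 20001 genes tested between the ages, 0 passed an adjusted p of 0.05 (limma, Benjamini-Hochberg), voom on the recovered fragments also called 0, and 2282 had an unadjusted p under 0.05, of which 1248 were higher and 1034 lower in aged libraries. After TPM scaling, where the level filter let 21490 genes be tested, that split was 1475 higher and 758 lower. With voom, on 20001 genes, it was 1583 and 769.

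Eng and Flt1 were detected at the level of several FPKM in every library and differed little between the ages, whereas Tie1, Cdh5, Kdr and Sox18 stood below 0.3 FPKM in every young library and averaged 2.38 (Kdr) to 3.92 (Tie1) times as much in aged ones. Vwf and Esam averaged 1.78 and 2.12 times the young mean. None of the 10 passed the adjusted threshold, where the share over all genes was 0.0% (smallest adjusted p of a member 0.315, Vwf). At an unadjusted p under 0.05, 5 of 10 were higher in aged libraries (Vwf, Tie1, Cdh5, Sox18 and Esam) and 0 lower, where 6.24% of all tested genes were higher. In 4 of 10 (Vwf, Tie1, Cdh5 and Kdr) every aged library lay above every young one, against 1.49% of all tested genes. The fitted difference was above 0 for 8 of 10 and below it for Flt1 and Tek, where Flt1 turned positive after TPM scaling and with voom, and Tek with voom. The median over the 10 genes was 0.69 on the log2(FPKM + 0.1) scale, beside -0.003 over all tested genes and 0.07 over the 7016 genes with a mean under 1 FPKM. With a pseudocount of 1 FPKM it was 0.29.

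**Figure D1:**
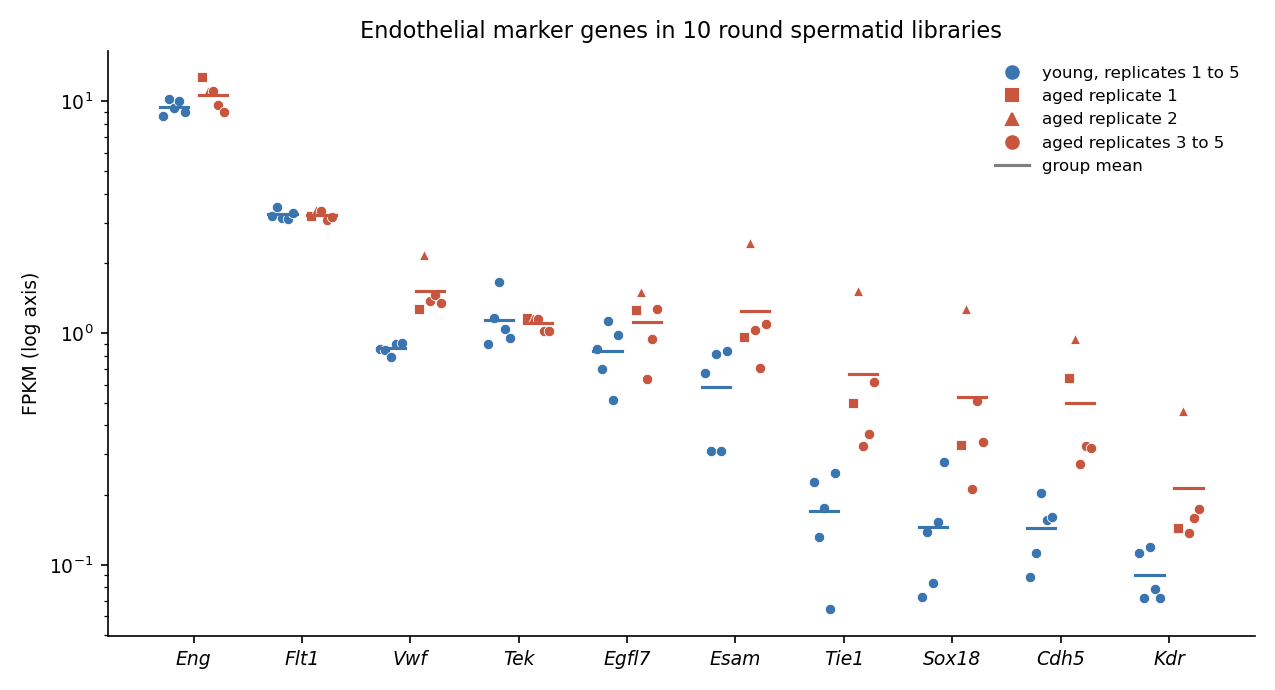
FPKM of the 10 endothelial marker genes in each of the 10 libraries, on a log axis, with genes ordered by their mean; blue points are young libraries, red markers aged ones, with aged replicate 1 as a square and aged replicate 2 as a triangle, and lines are group means. Flt1 lies at 3.09 to 3.51 FPKM in all 10 libraries, whereas Tie1, Cdh5, Kdr and Vwf have every aged library above every young one.

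In order of mean level over the 10 libraries, Eng (10.1 FPKM) and Flt1 (3.25 FPKM) led, followed by Vwf (1.19), Tek (1.12), Egfl7 (0.979), Esam (0.917), Tie1 (0.419), Sox18 (0.339), Cdh5 (0.322) and Kdr (0.153). Eng from Flt1 and Flt1 from Vwf were the neighbours whose values did not overlap in either age group. Vwf and Tek overlapped in young libraries, with Tek the higher of the pair in 5 of 5, and were apart in aged ones, with Vwf the higher in 5 of 5. Esam and Tie1 were apart in young libraries only. The remaining neighbours overlapped within both groups, so their order is not separated from the spread between libraries.

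Among the VEGF receptors, the decoy-forming Flt1 (ENSRNOG00000000940, chr12:9034308-9205905, plus strand; like the other gene positions below, in the coordinates of the deposited tables, for which the sources used here give no genome build) stood at 3.19, 3.51, 3.15, 3.12 and 3.31 FPKM in young replicates 1 to 5 and at 3.21, 3.40, 3.35, 3.09 and 3.16 FPKM in aged replicates 1 to 5. The groups lay on top of each other, with 321 to 430 fragments behind each value. The means were 3.26 ± 0.157 and 3.24 ± 0.129 FPKM (SD, n = 5), a log2 difference of -0.01 (SE 0.08, adjusted p = 0.983). Flt1 had the smallest spread of the 10 genes, with an SD of 0.06 on the log2 scale over the 10 libraries. Its partner Kdr (ENSRNOG00000046829, chr14:34727623-34787183, plus strand), the main signalling receptor, was the lowest of the 10, at 0.112, 0.0718, 0.119, 0.0790 and 0.0716 FPKM in young and at 0.145, 0.462, 0.137, 0.160 and 0.175 FPKM in aged replicates 1 to 5. Every aged library lay above every young one, and aged replicate 2 stood well above the rest. Kdr averaged 0.0907 ± 0.0230 and 0.216 ± 0.139 FPKM, 2.38 times the young mean, with a log2 difference of 0.65 (SE 0.30, unadjusted p = 0.056, adjusted p = 0.449). These values rest on 7 to 18 fragments per library outside aged replicate 2, which had 48. Counting error alone overlaps there: the exact Poisson 95% interval of aged replicate 3 was 0.0764 to 0.225 FPKM and that of young replicate 3 was 0.0594 to 0.213 FPKM.

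The angiopoietin receptor Tek (ENSRNOG00000008587, chr5:113725717-113852799, plus strand) stood at 0.896, 1.16, 1.67, 1.04 and 0.952 FPKM in young and at 1.16, 1.16, 1.15, 1.02 and 1.02 FPKM in aged replicates 1 to 5. Young replicate 3 was the highest of all 10 and the groups overlapped. Means were 1.14 ± 0.309 and 1.10 ± 0.0749 FPKM (log2 difference -0.02, SE 0.17, adjusted p = 0.976), and without young replicate 3 the log2 difference was 0.12. Its orphan partner Tie1 (ENSRNOG00000020173, chr5:137294532-137321101, minus strand) stood at 0.229, 0.132, 0.176, 0.0644 and 0.250 FPKM in young and at 0.499, 1.52, 0.327, 0.368 and 0.617 FPKM in aged replicates 1 to 5. No aged value was as low as the highest young one. Tie1 had the highest fitted difference of the 10, with means of 0.170 ± 0.0751 and 0.667 ± 0.492 FPKM, 3.92 times the young mean (log2 difference 1.37, SE 0.38, unadjusted p = 0.0041, adjusted p = 0.316). The fragments behind it were 53 over the young and 218 over the aged libraries, of which aged replicate 2 alone held 97. Without aged replicates 1 and 2 the aged mean was 0.437 FPKM, 2.57 times the young mean.

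Within each receptor pair the ratio of the 2 genes, per length, is given as a description with no test, since both ratios were chosen after their values were seen. Flt1 stood at 26.5 to 48.9 times the level of Kdr in young libraries (median 39.5) and at 7.35 to 24.5 times in aged ones (median 19.4), with no overlap. On the log2 scale the difference was -1.12, and -0.65 with 0.1 FPKM added to both genes, as Kdr rests on 7 to 12 fragments per young library. Tek stood at 3.81 to 16.2 times the level of Tie1 in young libraries (median 8.80) and at 0.764 to 3.52 times in aged ones (median 2.32), a log2 difference of -1.89, and of -1.39 with 0.1 FPKM added. Tie1 exceeded Tek in aged replicate 2 only. Without aged replicates 1 and 2 the differences were -0.84 and -1.52.

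Eng (ENSRNOG00000050190, chr3:11679530-11717485, plus strand), the co-receptor of the TGF-beta family and the most abundant of the 10, stood at 8.68, 10.2, 9.41, 10.1 and 8.97 FPKM in young and at 12.7, 11.1, 11.1, 9.63 and 9.03 FPKM in aged replicates 1 to 5. The groups overlapped, with aged replicate 1 the highest; Eng was the only one of the 8 genes with a positive difference in which aged replicate 2 was not the highest library of all. The means were 9.47 ± 0.668 and 10.7 ± 1.44 FPKM (SD, n = 5; log2 difference 0.17, SE 0.09, adjusted p = 0.506), from 417 to 716 fragments per library.

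Of the junction genes, Cdh5 (ENSRNOG00000013324, chr19:1023683-1074365, minus strand), the cadherin that defines endothelial contacts, stood at 0.0883, 0.113, 0.204, 0.155 and 0.161 FPKM in young and at 0.642, 0.940, 0.272, 0.325 and 0.321 FPKM in aged replicates 1 to 5. Aged replicates 1 and 2 were the highest, and the other 3 still lay above every young library. Cdh5 averaged 0.144 ± 0.045 and 0.50 ± 0.286 FPKM, 3.46 times the young mean (log2 difference 1.20, SE 0.32, unadjusted p = 0.0034, adjusted p = 0.316). Without aged replicates 1 and 2 the ratio was 2.12. Esam (ENSRNOG00000033217, chr8:39997875-40008809, plus strand), an adhesion molecule of tight junctions that platelets carry too, stood at 0.674, 0.309, 0.813, 0.310 and 0.834 FPKM in young and at 0.959, 2.44, 1.03, 0.707 and 1.09 FPKM in aged replicates 1 to 5. In 4 of 5 aged libraries Esam lay above the highest young value. The means were 0.588 ± 0.262 and 1.25 ± 0.686 FPKM (log2 difference 0.95, SE 0.35, unadjusted p = 0.021, adjusted p = 0.377), and without aged replicate 2 the aged mean was 0.947 FPKM.

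Vwf (ENSRNOG00000019689, chr4:158088505-158219523, plus strand), the stored clotting protein, which megakaryocytes also make, stood at 0.852, 0.843, 0.791, 0.900 and 0.910 FPKM in young and at 1.28, 2.18, 1.37, 1.46 and 1.35 FPKM in aged replicates 1 to 5. Young values lay close together, and the lowest aged value was above the highest young one. Means of 0.859 ± 0.0479 and 1.53 ± 0.369 FPKM gave 1.78 times the young mean (log2 difference 0.74, SE 0.16, unadjusted p = 0.00067, adjusted p = 0.315). Of the 5 genes with an unadjusted p under 0.05 Vwf was the best sampled, with 102 to 315 fragments per library. Without aged replicates 1 and 2 its aged mean was 1.39 ± 0.0600 FPKM (n = 3), 1.62 times the young mean.

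Egfl7 (ENSRNOG00000019388, chr3:4034921-4043936, plus strand), the matrix-associated secreted protein, stood at 0.854, 0.703, 1.13, 0.516 and 0.979 FPKM in young and at 1.26, 1.51, 0.634, 0.940 and 1.27 FPKM in aged replicates 1 to 5. Aged replicate 3 lay within the young range and the groups overlapped. The means were 0.836 ± 0.238 and 1.12 ± 0.339 FPKM (log2 difference 0.37, SE 0.25, adjusted p = 0.565), from 12 to 36 fragments per library. The transcription factor Sox18 (ENSRNOG00000016248, chr3:177177310-177179127, minus strand) stood at 0.0725, 0.139, 0.0838, 0.153 and 0.278 FPKM in young and at 0.330, 1.27, 0.212, 0.510 and 0.338 FPKM in aged replicates 1 to 5. In 4 of 5 aged libraries Sox18 exceeded the highest young value. It averaged 0.145 ± 0.0817 and 0.532 ± 0.426 FPKM, 3.66 times the young mean (log2 difference 1.22, SE 0.40, unadjusted p = 0.011, adjusted p = 0.344), and without aged replicate 2 the ratio was 2.39. It was the thinnest of the 10, with 19 fragments over the young and 73 over the aged libraries. In young replicate 1 it had 2 fragments, with an exact Poisson 95% interval of 0.00878 to 0.262 FPKM, which covers counting error only.

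**Figure D2:**
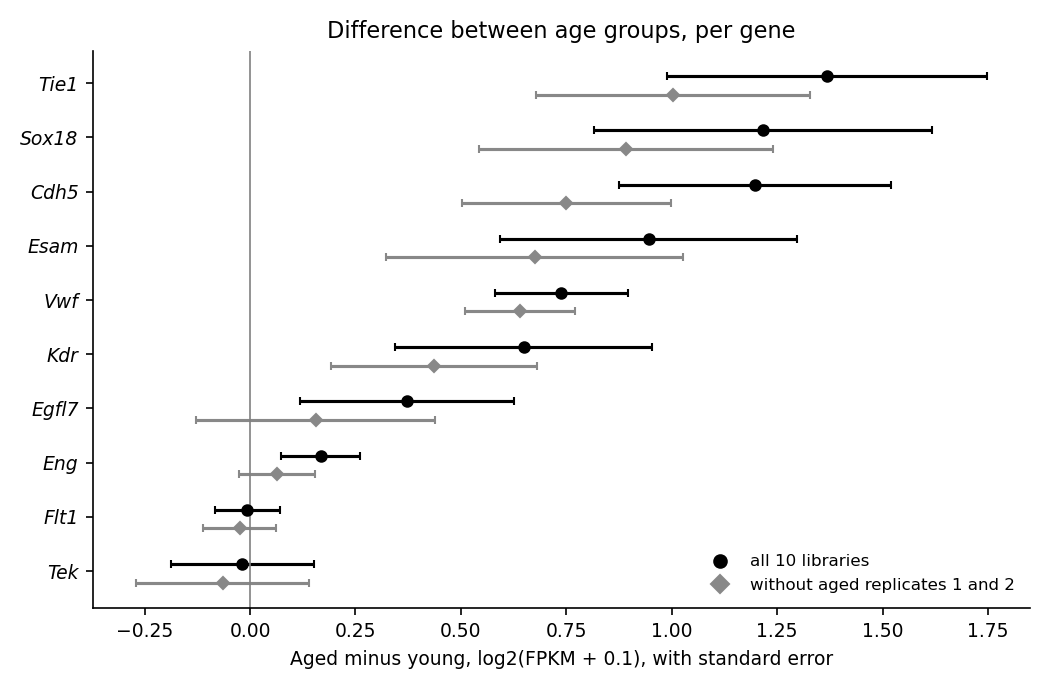
Aged minus young difference of each gene on the log2(FPKM + 0.1) scale, with its standard error, from all 10 libraries (black circles) and without aged replicates 1 and 2 (grey diamonds). Tie1 is highest at 1.37 and 1.003, Flt1 and Tek lie at 0 within their standard errors, and none of the differences passed the adjusted threshold.

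The plot of the differences sets the 2 versions of the fit side by side. Aged replicates 1 and 2 had the highest sums of the 10 genes (22.2 and 25.9 FPKM) and of the Leydig cell markers given below (55.9 and 125 FPKM). They were not the highest pair gene by gene: aged replicate 1 was the highest aged library for Eng only and the lowest for Vwf. Without aged replicates 1 and 2, the log2 difference was 1.003 for Tie1, 0.89 for Sox18, 0.75 for Cdh5, 0.68 for Esam, 0.64 for Vwf, 0.44 for Kdr, 0.16 for Egfl7 and 0.06 for Eng, and it was -0.02 for Flt1 and -0.07 for Tek. The sign of each difference was as in the full set, the adjusted p values were 0.456 to 0.958, and 4 of the genes were higher with an unadjusted p under 0.05 (Vwf, Tie1, Cdh5 and Sox18), against 3.74% of all tested genes in that fit.

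Most of these genes shared their highest aged library. Aged replicate 2 was the highest aged library for 9 of the 10 genes and the highest of all 10 libraries for 7 (Vwf, Tie1, Cdh5, Kdr, Esam, Egfl7 and Sox18); the order of the other aged libraries differed from gene to gene. Its level over the median of the other aged libraries was 3.80 for Sox18, 3.51 for Tie1, 3.04 for Kdr, 2.91 for Cdh5, 2.46 for Esam and 1.60 for Vwf. For Eng, Flt1 and Tek that ratio was 1.07 each. The 10 genes therefore did not keep 1 ratio to each other across libraries. Their summed level was 15.6 to 17.5 FPKM in young libraries, 22.2 and 25.9 FPKM in aged replicates 1 and 2, and 18.2 to 19.6 FPKM in aged replicates 3 to 5, and most of each sum was Eng and Flt1.

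**Figure D3:**
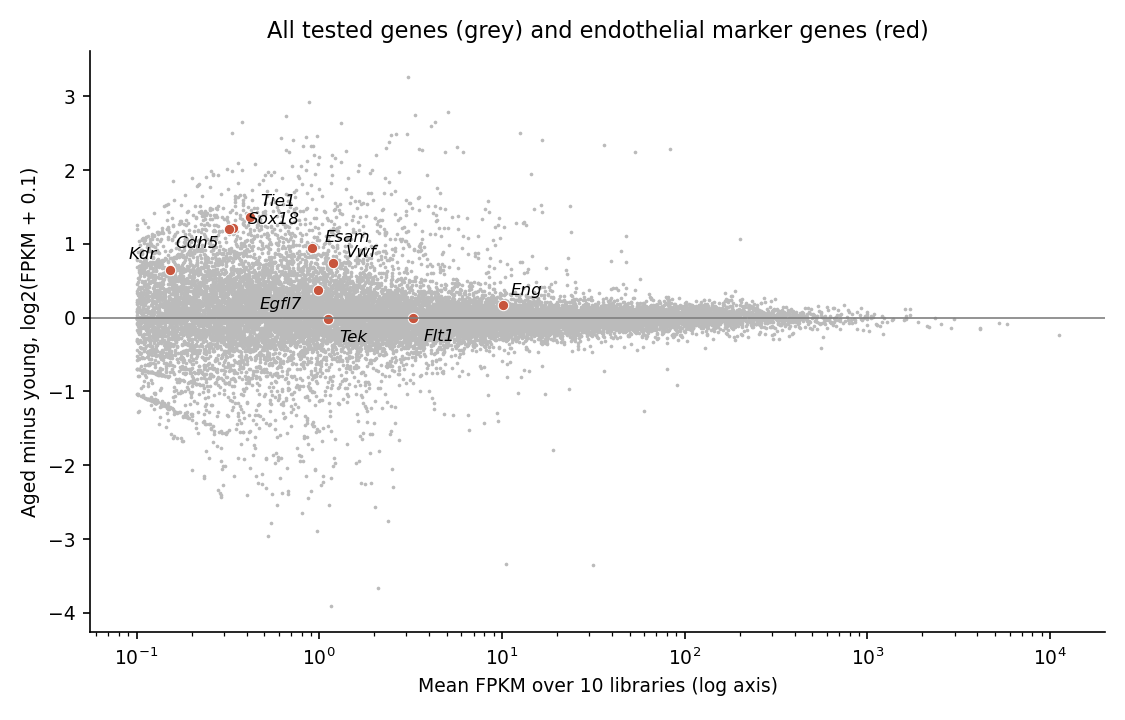
Aged minus young difference on the log2(FPKM + 0.1) scale against mean FPKM over the 10 libraries (log axis) for the 20001 tested genes (grey), with the 10 endothelial marker genes in red and named. The endothelial genes with a difference above 0.5 have a mean of at most 1.19 FPKM, where grey points spread most, and the median of all tested genes is -0.003.

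The spread of all genes by level is the setting of these values. Among tested genes with a mean under 1 FPKM, where 6 of the 10 lie (Egfl7, Esam, Tie1, Sox18, Cdh5 and Kdr), 56.6% had a positive difference, and among the 12985 genes at or above 1 FPKM 45.4% did, with a median of -0.02. Only Eng, Flt1, Vwf and Tek reached a mean of 1 FPKM. Over these 4 alone the median difference was 0.08, with 2 of 4 positive and 1 (Vwf) higher with an unadjusted p under 0.05, against 5.58% of all genes in a fit of that level.

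Of 28 other genes used as endothelial markers, 27 were found by name and 18 reached the tested level. Of the 18, 16 had a positive difference, 6 with an unadjusted p under 0.05, and 2 a negative one, 1 of them (Tal1) with an unadjusted p under 0.05; 0 passed after adjustment (smallest adjusted p 0.316), and the median was 0.46. Cldn5, a tight junction protein of endothelium, was listed at 0 in all 10 libraries, and Pecam1 was not found by name. The most abundant were Rasip1, a regulator of vessel lumen formation, at 15.5 ± 0.976 FPKM in young and 14.4 ± 3.06 FPKM in aged libraries, and Tal1, a factor of blood and endothelial development, at 14.8 ± 1.15 and 12.7 ± 0.337 FPKM (log2 difference -0.22, SE 0.06). Nos3, the endothelial nitric oxide synthase, stood at 1.14 ± 0.208 and 1.19 ± 0.0857 FPKM and S1pr1, a sphingosine phosphate receptor, at 0.852 ± 0.200 and 1.15 ± 0.277 FPKM. Of these 4, S1pr1 had the highest ratio of aged to young mean, 1.35, with 5 of 5 aged libraries above the young mean. The 6 higher ones with an unadjusted p under 0.05, named after their values were seen, were Icam2, Cd34, Mmrn2, Sox17, Emcn and Ramp2. They stood at 1.70 (Ramp2) to 4.24 (Icam2) times the young mean, with 10 fragments over the young libraries for Icam2. Without aged replicates 1 and 2 they stood at 1.45 (Cd34) to 3.08 (Icam2) times. The sum of the list was 34.2 to 38.5 FPKM in young and 29.7 to 42.3 FPKM in aged libraries, which overlap. Rasip1 and Tal1, both with a negative difference, made up most of it, so the sum says little of the rest.

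Ligands of these receptors averaged from 0 (Gdf2) to 1.34 FPKM (Angpt1) over the 10 libraries. Of 12 listed, 11 were found and 9 tested, all 9 with a positive difference, 3 of them with an unadjusted p under 0.05 and 0 after adjustment (smallest adjusted p 0.379); the median was 0.31. Angpt1, the activating ligand of TIE2, had young and aged means of 1.23 ± 0.139 and 1.44 ± 0.228 FPKM, and Angpt2, its context-dependent antagonist, 1.03 ± 0.262 and 1.17 ± 0.185 FPKM. Tgfb1 averaged 0.796 ± 0.204 and 1.56 ± 0.889 FPKM (log2 difference 0.79, SE 0.30) and Tgfb3 0.959 ± 0.260 and 1.23 ± 0.430 FPKM. Gdf2, which encodes the endoglin ligand BMP9, was listed at 0 in all 10 libraries. Bmp10, for the endoglin ligand BMP10, averaged 0.940 ± 0.125 and 1.11 ± 0.122 FPKM. Vegfa averaged 0.255 ± 0.104 and 0.511 ± 0.261 FPKM, and both were named after their values were seen. In the list of co-receptors and signalling partners the level was uneven. The co-receptor Nrp1 had young and aged means of 0.631 ± 0.200 and 1.55 ± 1.58 FPKM, and Nrp2 0.218 ± 0.0444 and 0.365 ± 0.125 FPKM. Nrp1 stood at 4.36 FPKM in aged replicate 2, and without that library its aged mean was 0.851 FPKM, 1.35 times the young mean. The most abundant genes of the list, named below, stood higher. Of the 14 tested rows of that list 8 had a positive and 6 a negative difference, 2 and 0 with an unadjusted p under 0.05, 0 after adjustment, with a median of 0.10. Jup (plakoglobin) averaged 20.5 ± 2.94 and 19.7 ± 0.669 FPKM and Ctnnb1 (beta-catenin) 10.3 ± 0.914 and 11.1 ± 1.61 FPKM; both bind the tail of VE-cadherin. Plcg1, a phospholipase downstream of VEGFR2, averaged 18.7 ± 1.22 and 17.7 ± 0.526 FPKM, and F8, the clotting factor that von Willebrand factor carries, 8.04 ± 0.587 and 7.38 ± 0.843 FPKM.

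Marker lists of other testis and blood cells were summed in the same libraries, since the aged libraries that stand highest in the endothelial genes also stand highest in several of them. In bulk libraries a change in the number of cells of a type and a change in RNA per cell cannot be told apart. Of 8 mural cell markers, of the cells that wrap vessels, 8 had a positive difference, 2 with an unadjusted p under 0.05. Their sum was 5.90 to 7.47 FPKM in young libraries, 10.8 and 20.3 FPKM in aged replicates 1 and 2, and 7.95 to 9.68 FPKM in aged replicates 3 to 5 (Mcam 3.50 ± 0.447 and 5.75 ± 2.22 FPKM, Pdgfrb 1.05 ± 0.217 and 1.49 ± 0.600 FPKM). All 7 tested Leydig cell markers (steroid-producing interstitial cells) had a positive difference, 6 with an unadjusted p under 0.05, with sums of 5.22 to 8.45 FPKM in young libraries, 55.9 and 125 FPKM in aged replicates 1 and 2, and 11.1 to 18.1 FPKM in aged replicates 3 to 5. Insl3 led that list, with young and aged means of 3.31 ± 0.754 and 29.7 ± 34.2 FPKM, followed by Cyp17a1 with 0.832 ± 0.392 and 9.27 ± 9.95 FPKM. All 11 peritubular muscle markers had a positive difference, 7 with an unadjusted p under 0.05, with sums of 61.0 to 90.3 FPKM in young and 92.2 to 219 FPKM in aged libraries (Acta2 28.6 ± 5.73 and 50.6 ± 21.1 FPKM, Myh11 21.8 ± 1.62 and 29.1 ± 6.25 FPKM). The sums of these 3 lists, like that of the 10 endothelial genes, did not overlap between the ages. Nor did that of the ligands, at 5.18 to 6.75 FPKM in young and 6.97 to 11.3 FPKM in aged libraries. The gaps were narrow for the endothelial genes (17.5 and 18.2 FPKM) and the peritubular list (90.3 and 92.2 FPKM). By gene, every aged library lay above every young one in 1 of 8 mural, 2 of 7 Leydig, 5 of 11 peritubular and 1 of 9 ligand genes tested. The share over all tested genes was 1.49%, and no such share was computed for sums. Mcam, the mural gene that was apart, led the mural sum.

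The sums of the remaining cell type lists overlapped. The sum of the 13 macrophage markers, 11 with a positive difference, was 149 to 201 FPKM in young and 160 to 250 FPKM in aged libraries; Aif1 made up most of it (143 ± 16.3 and 146 ± 8.52 FPKM), with Mrc1 at 6.31 ± 0.601 and 7.65 ± 2.29 FPKM, so the sum says little of the rest. The median log2 difference of the 13 was 1.38, with an unadjusted p under 0.05 for 7 higher and 2 lower in aged libraries. The 7, named after their values were seen, were C1qc, C1qb, C1qa, Cd68, Cd163, Csf1r and Tyrobp, at 4.03 (Tyrobp) to 8.68 (C1qc) times the young mean, and at 1.41 (Csf1r) to 2.73 (C1qb) times without aged replicates 1 and 2. The 2 lower ones were Adgre1 and Cx3cr1. Sertoli cell markers, 7 of 9 tested with a positive difference and 1 of them with an unadjusted p under 0.05, summed to 19.9 to 25.4 FPKM in young libraries, 93.9 FPKM in aged replicate 2 and 20.0 to 32.1 FPKM in the other aged libraries (Clu 15.8 ± 1.82 and 29.5 ± 26.2 FPKM, Cldn11 2.01 ± 0.364 and 4.11 ± 3.16 FPKM). For platelets, which share Vwf and Esam, 2 of 5 tested markers had a positive difference, 1 with an unadjusted p under 0.05, and the sums were 4.70 to 6.95 FPKM in young and 5.84 to 19.4 FPKM in aged libraries (Pf4 1.15 ± 0.486 and 5.13 ± 6.21 FPKM, Gp1ba 2.54 ± 0.560 and 2.19 ± 0.429 FPKM, Gp1bb listed at 0 in every library). For red cells 3 of 4 tested markers had a positive difference, 1 with an unadjusted p under 0.05, and the sums were 1.04 to 3.14 and 2.74 to 7.61 FPKM (Hbb 1.13 ± 0.694 and 2.89 ± 2.09 FPKM, Epb42 0.663 ± 0.164 and 0.588 ± 0.121 FPKM). Of the germ cell lists, 0 of 8 spermatocyte markers had a positive difference and 2 of the 8 negative ones had an unadjusted p under 0.05, with sums of 263 to 319 and 236 to 282 FPKM (Stag3 138 ± 4.09 and 134 ± 3.62 FPKM, Sycp3 87.5 ± 10.2 and 72.3 ± 9.59 FPKM), and 4 of 10 spermatid markers had a positive one, with a median of -0.07 and an unadjusted p under 0.05 in 0 of 10. The most abundant spermatid markers were Prm1 (12154 ± 3121 and 10134 ± 1373 FPKM) and Tnp2 (6022 ± 861 and 5616 ± 380 FPKM), and the 4 with a positive difference were Sun5, Spaca1, Acrv1 and Catsper1 (log2 difference 0.17, 0.16, 0.14 and 0.01). In these lists 0 genes passed after adjustment. The part of other cell types in the differences of the endothelial genes was not tested.

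**Figure D4:**
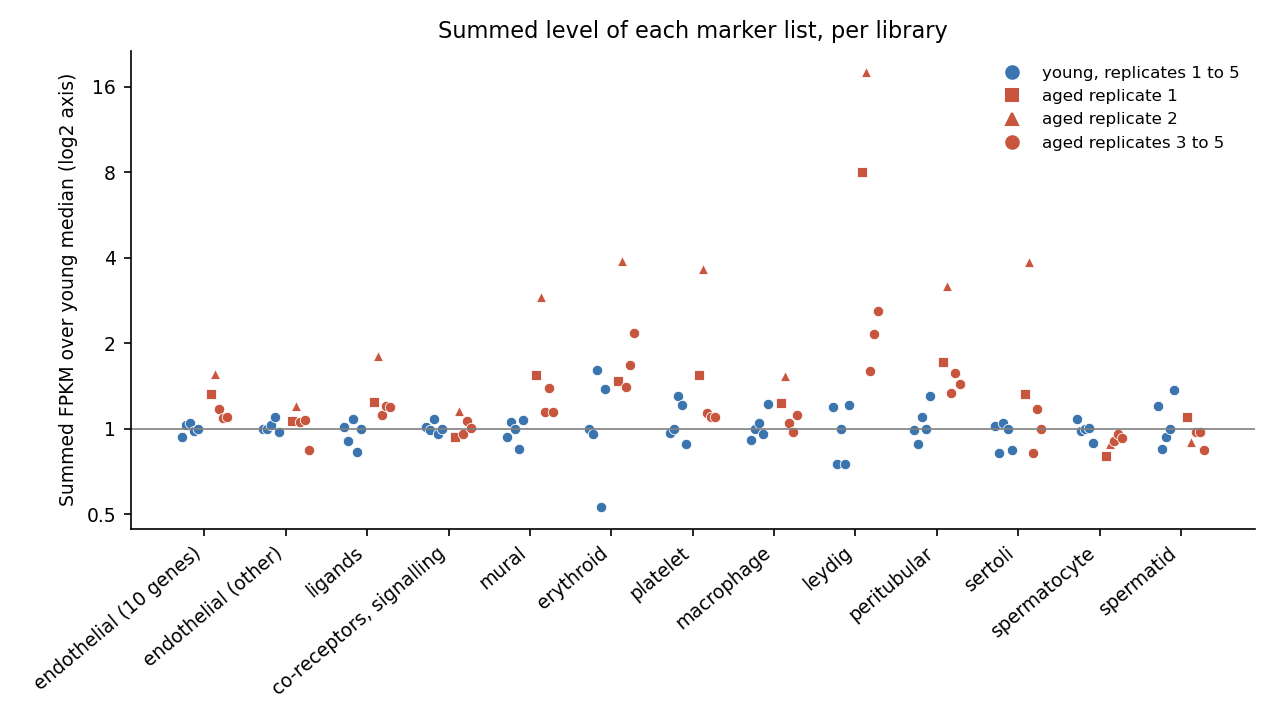
Summed FPKM of each marker list in each library, divided by the median of that sum over the young libraries (log2 axis); blue points are young libraries, red markers aged ones, with aged replicate 1 as a square and aged replicate 2 as a triangle. Aged replicate 2 has the highest sum of the 10 endothelial marker genes (25.9 FPKM) and of every other list except the spermatocyte and spermatid lists.

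The genes whose pattern over the 10 libraries was most like the mean pattern of the endothelial genes were sought among 12981 genes averaging 1 FPKM or more, by the root mean square distance between centred log2(FPKM + 0.1) profiles. The nearest were Itm2c (distance 0.12 log2), Tubb5 (0.12), Pgam1 (0.13), Mcam (0.14) and Slc7a5 (0.14), against a median of 0.46 over all candidates. Itm2c, a membrane protein, had means of 12.5 ± 0.875 (young) and 18.1 ± 6.00 FPKM (aged) and stood at 28.7 FPKM in aged replicate 2. Mcam, also known as CD146, is on the mural list here and is carried by endothelial cells too. Among the 10 genes themselves, Kdr and Vwf lay nearest to their common pattern (0.17 each) and Sox18 (0.50) and Tie1 (0.48) farthest, since their differences exceeded the mean pattern, while Tek (0.45) and Flt1 (0.42) lay far from it with almost flat profiles. The points of this measure share library, depth and the aged replicates named above, and it is given as a description.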

How the data were processed

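Gene expression was measured by RNA-seq in 5 young and 5 aged samples. Per the labels' protocols, total RNA was column-purified and made into SMARTer mRNA libraries. The authors deposited FPKM values, fragments scaled to gene length and library total, with 32545 genes per sample. HISAT2 2.0.5 and featureCounts 1.5.0-p3 are listed, per the submitters' processing notes. The sources used here give no settings, strand or genome build, so overlapping and antisense genes cannot be told apart.

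Whole fragments were recovered from FPKM, length and the smallest step of each library; within a tolerance of 0.001, 100% of values came out whole in every library. Ages were compared with limma 3.58.1 (R 4.3.3; lmFit, eBayes with a trend, two-sided) on log2(FPKM + 0.1), over the 20001 genes averaging 0.1 FPKM or more, with Benjamini-Hochberg adjustment over all of them and a threshold of 0.05. The pseudocount understates differences of genes near 0.1 FPKM. The fit was run on simulated counts with the same spread between libraries for all genes and no outlying library. That does not show how it behaves for thin genes or with a library like aged replicate 2. No 2 libraries of the same age group were duplicates, with a chi-square per gene of at least 4.17 between replicates. Young libraries were not compared with aged ones in this way.

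Named genes were all 10 endothelial genes, the 4 most abundant of each endothelial and pathway list, the 2 most abundant of each list of another cell type, and the 5 nearest in pattern. Others were named after their values were seen. Genes and lists were chosen with earlier results of these data known. Alternatives were other pseudocounts, filters and scalings, voom, a replicate block, and leaving out samples. The labels name no batch. Promoter windows came from RefSeq, build GRCr8, with 5 of 10 genes matched.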

Additional observations from a re-analysis of the deposited data

Results flagged for a closer look

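Aged replicate 2 stood apart from the other 4 aged libraries in 5 of the 10 endothelial genes. The test was Dixon's at 95%, of the gap to the nearest neighbour relative to the range of the group. It was run on FPKM without a log, where a high value stands out more than on the log2 scale of the fits. The flags were not tested on that scale. Chance meets the test in about 1 of 20 groups if values are normally distributed. These 5 share 1 library, aged replicate 2, and are not independent of each other. Vwf was at 2.18 FPKM there, while its remaining aged values were 1.28 to 1.46 FPKM. Tie1 was at 1.52 FPKM against 0.327 to 0.617 FPKM, and Kdr at 0.462 FPKM against 0.137 to 0.175 FPKM. Esam was at 2.44 FPKM against 0.707 to 1.09 FPKM, and Sox18 at 1.27 FPKM against 0.212 to 0.510 FPKM. The summed Leydig markers stood at 125 FPKM in that library, of which Insl3 held 86.4 FPKM. The summed Sertoli markers stood at 93.9 FPKM there, of which Clu held 75.9 FPKM. The part of these cell types in the endothelial values was not tested.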

How the results depend on the processing

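In each of the 19 alternatives 0 of the tested endothelial genes passed, with a lowest adjusted p of 0.203 (Vwf without young replicate 5). Over all genes 0 passed with the full set, 0 to 3 when 1 library was left out, and 2 without both aged replicates 1 and 2; none was an endothelial gene. The median log2 difference of the 10 genes was 0.69, and 0.287 with a pseudocount of 1 FPKM. With a mean of at least 1 FPKM, which leaves 4 of them, it was 0.0806, and 0.0747 with that pseudocount too; in both fits 2 genes had a positive difference and 1 had an unadjusted p under 0.05. Of 178 values for single genes under an alternative, 169 kept their direction and their side of the threshold and 9 changed sign, all in Flt1 or Tek. Flt1 was at 0.0069 after TPM scaling and 0.014 with voom, and between -0.0230 and 0.0198 when 1 library was left out. Tek was at 0.016 with voom and between -0.0906 and 0.116 when 1 library was left out. Without aged replicate 2, Kdr had a log2 difference of 0.42. Replicate numbers did not pair the samples (correlations of same-numbered deviations -0.099 to 0.008); with a replicate block 0 genes passed, the lowest adjusted p among the endothelial genes was 0.510, and it changed no call. Depth limits Sox18, Kdr, Tie1 and Cdh5 most, with 2 to 15 fragments in each young library.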
